A study of Homo sapiens with 6 samples.

Results

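Most aldehyde dehydrogenases are NAD(P)+-dependent enzymes that turn reactive aldehydes into carboxylic acids. The family members differ in where in the cell they work and in their substrates. The 10 genes described here are *ALDH2*, *ALDH1A3*, *ALDH1B1*, *ALDH3A2*, *ALDH3B1*, *ALDH4A1*, *ALDH7A1*, *ALDH9A1*, *ALDH16A1* and *ALDH18A1*. They were taken by symbol from a table of 15917 genes, in which all 10 are listed. In breast cancer cells the family is best known for the activity measured as a mark of stem-like cells, to which *ALDH1A3* contributes. *ALDH2* is among the genes that the study took forward as candidate targets of the RNA-binding protein RBMS3.

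The study sequenced 6 total RNA libraries of MDA-MB-231, a mesenchymal-like human breast cancer cell line. Of these, 2 libraries came from cells with a control hairpin (shCTRL, genotype WT) and 2 each from cells with the *RBMS3* hairpins shRBMS3-B3 (RBMS3 KD1) and shRBMS3-C3 (RBMS3 KD2). According to the study's methods, hairpins were delivered with a lentiviral vector into luciferase-labeled cells that were then selected with puromycin, so all groups share these steps. The labels call the libraries of a group biological replicates without naming separate cultures. The deposited measurement used here is the mean normalized count of each gene, a single value pooled over libraries by the authors. Which of the 6 libraries entered it is not given in the sources used here. It carries no spread between replicates and does not separate knockdown from control cells, so no difference between the groups is given. Levels and sequence features of the 10 genes are therefore descriptions, with no test. The depth of each library is unknown.

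The mesenchymal markers *VIM*, *CD44* and *FN1* lay at or above percentile 97.1 when all listed genes were ordered by mean normalized count, and *SPARC* is not in the table. Of the luminal epithelial markers, *KRT8* and *KRT18* were also high, at percentiles 99.3 and 98.9, whereas *EPCAM*, *GATA3* and *CDH1* lay at percentiles 25.7, 34.2 and 3.64, and *ESR1* and *PGR* are not listed. Of the markers of other cell types, *PECAM1* lay at percentile 18.6, and *PTPRC* and *ALB* are not listed. *RBMS3* had a mean normalized count of 272, a pooled value that cannot check the knockdown.

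RBMS3 is a protein that binds A- and U-rich RNA, and the study links it to an AUA element in 3′ untranslated regions (3′UTRs). The element reads, from its first to its last base, A, G or T, then A or T, then ATA, then A or T, then A. It was sought on the transcript strand in the 3′UTR of 1 representative GENCODE transcript per gene, with overlapping matches counted. When its second base and its sixth base are both A, the match holds AATAAA, which is also the canonical polyadenylation signal. The matches of the 4 members with a single one are shown first, because all 4 are of this kind and lie at the very end of the transcript. Capitals mark the match within 30 bases of hg38, written 5′ to 3′ on the strand of the gene.

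*ALDH9A1*, chr1:165662221-165662250, minus strand: tggtgaaattaAAATAAAtcacactgttaa
*ALDH18A1*, chr10:95605943-95605972, minus strand: ccttttttgagAAATAAAgttttttatgaa
*ALDH16A1*, chr19:49471016-49471045, plus strand: ggaactctctgGAATAAAattaaagtcctc
*ALDH3B1*, chr11:68029242-68029271, plus strand: tgatgtcacctGAATAAAgccttcttccct

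*ALDH2* and *ALDH1A3* hold the most matches without AATAAA, 9 and 6. The next sequences show the windows of these genes in which matches overlap. In the windows of *ALDH2*, the capitals cover 3 and 4 overlapping matches, and in that of *ALDH1A3* they cover 3.

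*ALDH2*, chr12:111811343-111811372, plus strand: ccgtctcaAAATATAAATAAAtaagaaaaa
*ALDH2*, chr12:111815761-111815790, plus strand: taccatgcATATATATATATAttttttttt
*ALDH1A3*, chr15:100916471-100916500, plus strand: tagaaatggAAATATATATAgtgttaggtt

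The 10 genes covered a wide range of levels in MDA-MB-231 cells. The authors' mean normalized count ran from 163 for *ALDH1A3* to 1723 for *ALDH18A1*, with a median of 890 over the 10 genes against 364 over all listed genes. By this mean, 8 of the 10 lay above the median of all listed genes, and *ALDH4A1* and *ALDH1A3* lay below it. The table holds no gene with a mean under 26.7, so percentiles refer to expressed genes only.

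A mean normalized count is not corrected for transcript length, so genes were compared with each other per kilobase of the representative transcript. On this scale *ALDH9A1* was highest at 631 and *ALDH1A3* lowest at 46.9 mean normalized counts per kilobase, a ratio of 13.5. The median over all 15829 genes with an annotated length was 137, and 7 members lay above it. *ALDH4A1*, *ALDH2* and *ALDH1A3* formed the low end, between 46.9 and 64.1 per kilobase. The place of *ALDH2* there depended on the length used. Per kilobase of coding sequence it stood at 386, against 119 for *ALDH4A1* and 106 for *ALDH1A3*.

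**Figure D1:**
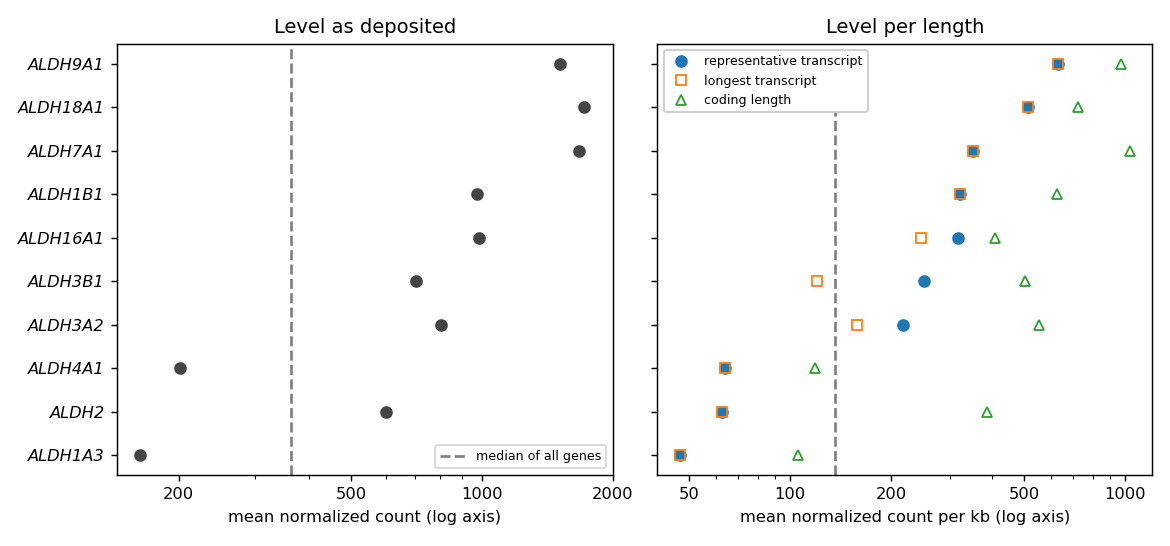
Level of the 10 aldehyde dehydrogenase genes, as the authors' mean normalized count (left, log axis) and per kilobase of the representative transcript, the longest transcript or the coding sequence (right, log axis), with 1 pooled value per gene and no error. Dashed lines are the medians of all listed genes, 364 on the left and 137 for the representative transcript on the right; *ALDH2* moves furthest between length definitions, from 62.8 to 386 per kilobase.

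The mitochondrial enzymes *ALDH2* and *ALDH1B1* both oxidize acetaldehyde. *ALDH2* (ENSG00000111275) is annotated at chr12:111766887-111817532 (plus strand) and *ALDH1B1* (ENSG00000137124) at chr9:38392702-38398661 (plus strand) in GENCODE release 44 on hg38. *ALDH2* had a mean normalized count of 600, at percentile 62.2 of all listed genes. *ALDH1B1* had a mean of 975, at percentile 73.6. Per kilobase of the representative transcript, *ALDH1B1* was 5.13 times as high as *ALDH2*, at 322 against 62.8. Per kilobase of coding sequence, the ratio was 1.62. The representative *ALDH2* transcript measures 9561 bases, of which 83.2% is 3′UTR, whereas the *ALDH1B1* transcript measures 3028 bases. An unnamed protein-coding gene model on the same strand shares exonic sequence with *ALDH2*, and the counting may have divided reads between both. Which 3′ end *ALDH2* uses in these cells was not tested, and the ratio of the 2 genes depends on it.

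*ALDH1A3* (ENSG00000184254) makes retinoic acid from retinaldehyde in the cytosol. It is annotated at chr15:100877714-100916626 (plus strand). Its mean normalized count of 163 put it at percentile 33.1 of all listed genes, and it was the lowest of the 10 by mean and by every length definition used. The mean of *ALDH2* was 3.69 times that of *ALDH1A3*, but per kilobase of the representative transcript the ratio was 1.34. Its representative transcript shares exonic sequence with an unnamed lncRNA gene on the same strand and with *ALDH1A3-AS1* on the opposite strand.

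*ALDH3A2* and *ALDH3B1* oxidize medium- and long-chain fatty aldehydes at membranes, *ALDH3A2* mainly in the endoplasmic reticulum. *ALDH3A2* (ENSG00000072210) is annotated at chr17:19648136-19685760 (plus strand) and *ALDH3B1* (ENSG00000006534) at chr11:68008578-68029282 (plus strand). *ALDH3A2* had a mean normalized count of 806 and *ALDH3B1* of 707. Per kilobase of the representative transcript they stood at 218 and 251, and per kilobase of coding sequence at 553 and 502. Of the 10 genes, only *ALDH3A2*, *ALDH3B1* and *ALDH4A1* have more than 1 annotated transcript with the same protein. Among these, *ALDH3A2* depended most on the choice. With the shortest, of 1708 bases against 3703, it stood at 472 per kilobase and ranked 3 of the 10 in place of 7. *ALDH3B1* then stood at 310 and *ALDH4A1* at 94.7. Without replicates the levels of *ALDH3A2* and *ALDH3B1* cannot be ordered.

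Amino acid metabolism holds one of the most abundant members by mean and one of the least abundant. *ALDH18A1* (ENSG00000059573) encodes pyrroline-5-carboxylate synthase, which starts proline synthesis from glutamate, and is annotated at chr10:95605941-95656711 (minus strand). *ALDH4A1* (ENSG00000159423) carries out the last step of proline breakdown in mitochondria and is annotated at chr1:18871430-18902724 (minus strand). The mean normalized count was 1723 for *ALDH18A1*, at percentile 85.1, and 201 for *ALDH4A1*, at percentile 37.3. The mean of *ALDH18A1* was 1.03 times that of *ALDH7A1*, and without replicates these means cannot be ordered. Per kilobase of the representative transcript, the gene of synthesis was 8.02 times as high as the gene of breakdown, and per kilobase of coding sequence 6.07 times.

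*ALDH7A1* acts in lysine breakdown and *ALDH9A1* on aminoaldehydes, including one in carnitine synthesis. *ALDH7A1* (ENSG00000164904) is annotated at chr5:126531200-126595362 (minus strand) and *ALDH9A1* (ENSG00000143149) at chr1:165662216-165698562 (minus strand). *ALDH7A1* had a mean normalized count of 1676, and *ALDH9A1* of 1511. Per kilobase of the representative transcript *ALDH9A1* had the highest value of the 10, 631 against 352 for *ALDH7A1*. Per kilobase of coding sequence *ALDH7A1* had 1034 and *ALDH9A1* 971, and values this close cannot be ordered without replicates. A Y RNA gene on the same strand shares exonic sequence with *ALDH9A1*. GENCODE names 4 pseudogenes of *ALDH7A1*, so the counting may have split reads among these copies.

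*ALDH16A1* (ENSG00000161618) encodes an unusual family member that is described as lacking the catalytic cysteine in mammals. It is annotated at chr19:49453225-49471050 (plus strand). Its mean normalized count was 985, at percentile 73.9, close to the 975 of *ALDH1B1*, and without replicates the 2 means cannot be ordered. Per kilobase of the representative transcript the 2 genes were also close, at 318 and 322, whereas per kilobase of coding sequence *ALDH1B1* was 1.53 times as high. Its representative transcript overlaps exons of *PIH1D1* on the opposite strand and of an unnamed protein-coding gene model on the same strand. The library kit keeps strand, but whether the counting used it is not stated in the sources used here.

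Besides the 10 genes, 3 further family genes are in the table. *ALDH6A1*, a mitochondrial enzyme of valine breakdown, had a mean normalized count of 616, or 113 per kilobase. *ALDH5A1*, succinate semialdehyde dehydrogenase, and *ALDH3A1* had means of 137 and 104. The other 6 family genes looked up, *ALDH1A1*, *ALDH1A2*, *ALDH1L1*, *ALDH1L2*, *ALDH3B2* and *ALDH8A1*, are not listed. Of *ALDH1A1*, *ALDH1A2* and *ALDH1A3*, which all make retinoic acid, the table thus holds the last.

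In the proline and glutamate list, 5 of 7 genes are in the table, with a median of 528 mean normalized counts per kilobase. *PYCR1*, a pyrroline-5-carboxylate reductase that completes proline synthesis after *ALDH18A1*, stood at 604 per kilobase. *GLUD1*, glutamate dehydrogenase, stood at 963 and *OAT*, ornithine aminotransferase, at 528. *PRODH* and *PRODH2*, which open proline and hydroxyproline breakdown upstream of *ALDH4A1*, are not listed.

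In the retinoic acid list, 12 of 18 genes are in the table, with a median of 158 per kilobase. *RDH10*, a retinol dehydrogenase that supplies retinaldehyde, stood at 45.7 per kilobase, close to the 46.9 of *ALDH1A3*. *RDH11*, a retinal reductase, reached 908. The receptors *RARA* and *RXRA* stood at 192 and 229, whereas *RARB* and *RXRG* are not listed. *CYP26B1*, which degrades retinoic acid, stood at 31.1, and *CYP26A1* is not listed.

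In the alcohol and formaldehyde list, 2 of 9 genes are in the table. *ADH5*, which oxidizes the glutathione adduct of formaldehyde, stood at 569 per kilobase, and *ESD*, which acts after it, at 304. The other alcohol dehydrogenases searched, *ADH1A*, *ADH1B*, *ADH1C*, *ADH4*, *ADH6* and *ADH7*, are not listed, and neither is *CYP2E1*. In the list of fatty aldehyde, lysine, carnitine and choline genes, 6 of 9 are in the table. *SGPL1*, which releases a fatty aldehyde from sphingosine-1-phosphate upstream of *ALDH3A2*, stood at 182 per kilobase. *AASS*, which opens lysine breakdown upstream of *ALDH7A1*, stood at 96.4.

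**Figure D2:**
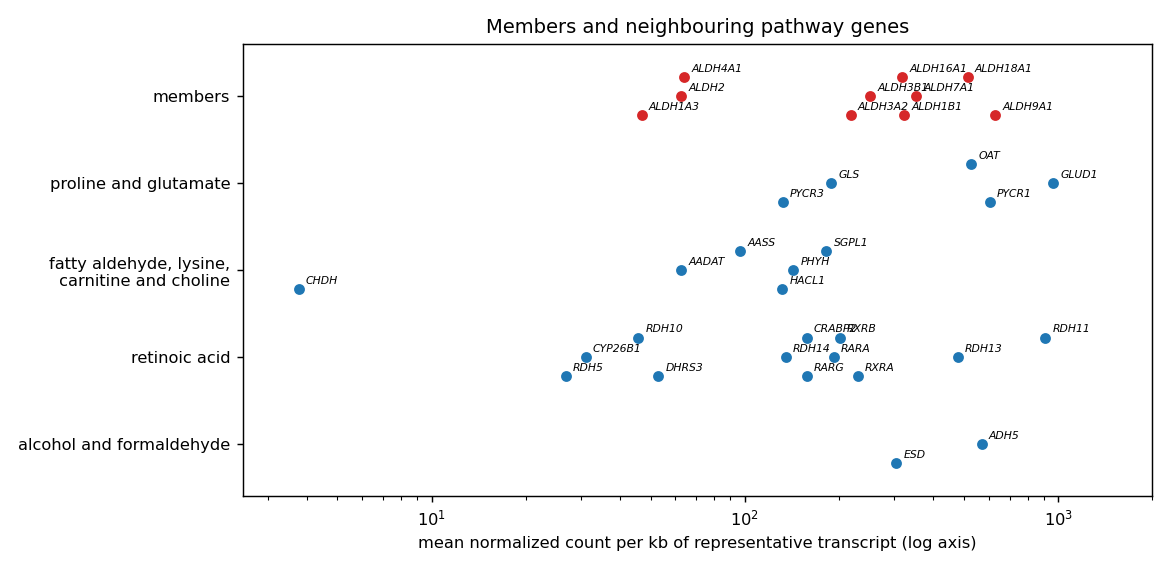
Mean normalized count per kilobase of the representative transcript (log axis) for the 10 aldehyde dehydrogenase genes, in red, and for the listed genes of 4 neighbouring pathways, in blue, with 1 pooled value per gene. *ALDH18A1* at 514 lies beside *OAT* at 528 and *PYCR1* at 604, and *ALDH1A3* at 46.9 beside *RDH10* at 45.7.

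The 3′UTRs of the 10 genes differed widely in length and little, as a group, from those of all genes. They measured from 583 bases in *ALDH16A1* to 7957 in *ALDH2*, with a median of 1387 against 1378 over the 12351 listed genes with a 3′UTR. That of *ALDH2* lay at percentile 97.5 of these. A+U content ran from 40.5% in *ALDH4A1* to 62.1% in *ALDH9A1*, with a median of 57.4% against 57.9% over all genes.

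The AUA element occurred in the 3′UTR of 9 of the 10 genes, against 84.8% of all listed genes with a 3′UTR, so a match was common in both. *ALDH4A1* had none. *ALDH2* had 13 matches, *ALDH1A3* 8, *ALDH7A1* and *ALDH3A2* 6 each, *ALDH1B1* 4, and *ALDH9A1*, *ALDH18A1*, *ALDH16A1* and *ALDH3B1* 1 each. In the shortest 3′UTR annotated with the same protein, *ALDH3A2*, with 92 bases, and *ALDH3B1*, with 757, held 0 matches. Per kilobase of 3′UTR, *ALDH1A3* was the densest with 4.32 matches and *ALDH3B1*, of those with any, the sparsest with 0.748. Pooled over the 10 genes the density was 1.92 per kilobase of 3′UTR, against 2.79 pooled over all genes. *ALDH2*, with 7957 bases of 3′UTR and 1.63 matches per kilobase, weighs most in the pooled value of the 10. *ALDH1A3*, *ALDH3A2* and *ALDH1B1* lay above 2.79 and the other members below it.

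Of the 41 matches in the 10 genes, 20 held AATAAA, against 25769 of 71510 over all listed genes with a 3′UTR. In 4 of the 10 genes every match held AATAAA, against 22.4% of all genes. In 7 genes such a match lay within 40 bases of the annotated 3′ end, a state shared by 52.2% of all genes. These 7 included the windows of *ALDH9A1*, *ALDH18A1*, *ALDH16A1* and *ALDH3B1* shown above, whose matches end 14 to 17 bases before the transcript end. Leaving aside matches with AATAAA, 5 of the 10 genes had a match, against 62.4% of all genes. These were *ALDH2* with 9, *ALDH1A3* with 6, *ALDH7A1* with 3, *ALDH3A2* with 2 and *ALDH1B1* with 1. A match describes these letters only and is not a measured binding site. The study itself mapped binding of tagged RBMS3 in MDA-MB-231 cells by cross-linking and immunoprecipitation. It chose its candidates, *ALDH2* among them, from genes with direct binding in the 3′UTR. The study further required lower RNA and protein after knockdown, no reduced transcription rate, and an association with better patient survival. It also placed an *ALDH2* binding site in a reporter. The *ALDH2* insert printed in the study's supplement holds none of the *ALDH2* matches counted here. How far that site lies from them was not tested.

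**Figure D3:**
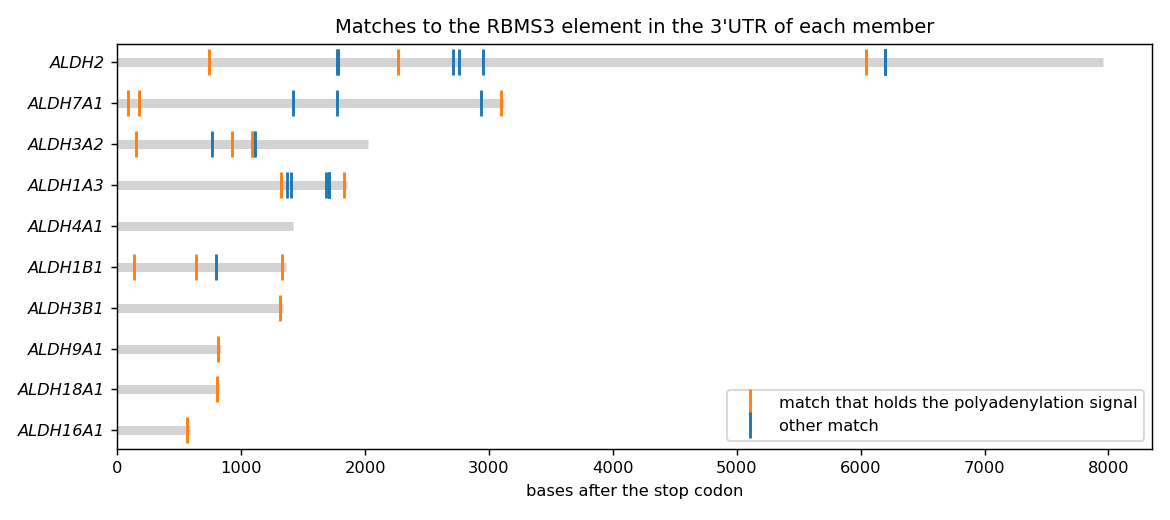
Position of each match to the AUA element along the 3′UTR of the 10 genes, in bases after the stop codon, with grey bars for the 3′UTR of the representative transcript. Orange marks are the 20 matches that hold the polyadenylation signal and blue marks the other 21; in *ALDH9A1*, *ALDH18A1*, *ALDH16A1* and *ALDH3B1* the single mark lies at the end of the bar.

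In *ALDH2* the 13 matches fell into 8 separate places. The nearest to the stop codon started 738 bases after it, and the farthest ended at base 6206, with 1751 bases of annotated 3′UTR beyond. The 2 clusters printed above started at bases 1776 and 6194. In *ALDH1A3* all 8 matches lay in the distal part of the 1853-base 3′UTR, from base 1322 on. In *ALDH7A1* they were spread from base 84 to base 3105 of a 3124-base 3′UTR. In the coding sequence, the element was found in 2 of the 10 genes, *ALDH3A2* with 3 matches and *ALDH9A1* with 1, against 40.5% of all coding genes.

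The 10 proteins, translated from the representative GENCODE transcripts, ranged from 468 residues for *ALDH3B1* to 802 for *ALDH16A1*. Over the 45 pairs, the median identity was 27.6% of the shorter protein, and 5 pairs exceeded 40%. *ALDH2* and *ALDH1B1* were the closest pair at 74.1%, followed by *ALDH1A3* with *ALDH2* at 64.5% and with *ALDH1B1* at 62.5%. *ALDH3A2* and *ALDH3B1* shared 53.2%, and *ALDH9A1* and *ALDH2* 41.8%. The catalytic cysteine of the family lies in a short run of glycine, glutamine, any residue and cysteine, and this run was found once in 8 of the 10 proteins. In *ALDH16A1* and *ALDH18A1*, the longest 2 proteins, this run was not found. Only this exact run was sought, so the search cannot tell whether either protein has a catalytic cysteine in another sequence. *ALDH18A1* was also the member least like any other, with at most 27.2% identity.

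**Figure D4:**
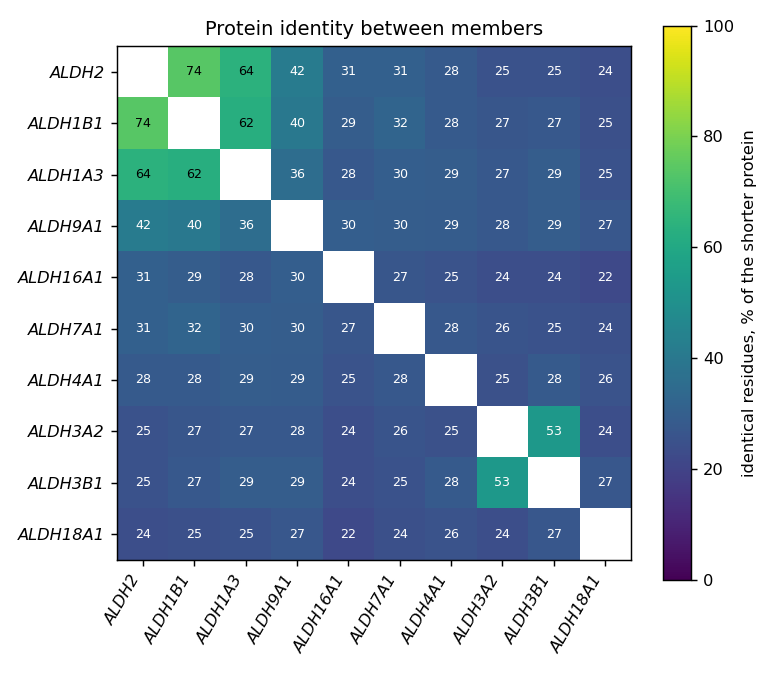
Identical residues between each pair of the 10 proteins, as a percentage of the shorter protein after global alignment, from dark (low) to bright (high). *ALDH2*, *ALDH1B1* and *ALDH1A3* form a block at 62.5% to 74.1%, *ALDH3A2* and *ALDH3B1* a pair at 53.2%, and *ALDH18A1* stays at or below 27.2% with all others.

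Levels were then set beside this likeness. *ALDH2*, *ALDH1B1* and *ALDH1A3*, the 3 most alike, stood at 62.8, 322 and 46.9 mean normalized counts per kilobase of the representative transcript. *ALDH3A2* and *ALDH3B1*, the next closest pair, stood at 218 and 251.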

How the data were processed

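Total RNA was extracted with Trizol, and strand-specific libraries were made from low-input RNA with depletion of ribosomal cDNA and sequenced as paired ends. The submitters' processing notes name Salmon, DESeq2 and hg38. Versions and the annotation used for the table are not given in the sources used here. The deposited signal used is the mean normalized count per gene, which the authors pooled over libraries. The 5 columns of the authors' own comparison (log2 fold change, its standard error, test statistic, p-value and adjusted p-value) were not used, and no test was run. No column holds a single library, so the count test foreseen in the design could not be run.

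Ensembl identifiers were looked up in GENCODE release 44 (hg38), where 15829 of 15917 were found and 88 were not. As representative transcript, the MANE Select transcript was used, failing that the Ensembl canonical transcript, and failing both the transcript whose coding sequence was longest. At least 7 bases of 3′UTR were required. All windows were read again from the hg38 genome and were equal to it. Proteins were aligned globally with BLOSUM62, a gap opening of -10 and extension of -0.5. Named genes were the 10 members, the other family genes, *RBMS3*, 4 pathway lists and cell type markers. One gene of a pathway list is not reported here and was left out of its counts. Members and lists were chosen with earlier results of these data known. The motif search was tested on simulated data. Python 3.11.15, pandas 2.3.3, numpy 2.4.6, Biopython 1.88 and matplotlib 3.10.9 were used.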

Additional observations from a re-analysis of the deposited data

How the results depend on the processing

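Of the 10 genes, 3 kept their rank by level when divided by coding length, 1 when not divided by length, and 5 when divided by the shortest transcript with the same protein, an alternative added after the data were seen, against 8 with the longest transcript. *ALDH1A3* was lowest under each. The median percentile by level of the 10 genes was 71.5 among all listed genes, 65.3 among protein-coding ones and 62.2 among those with a mean of at least 100. The AUA element was found in 9 of the 10 3′UTRs with 41 matches, in 2 coding sequences with 4 matches, and in 5 3′UTRs with 21 matches once those holding AATAAA were left out, an alternative added after the data were seen. With the longest 3′UTR, without overlaps and with the shortest 3′UTR of the same protein, the last also added later, 8, 9 and 7 genes had a match. Leaving out overlaps can lower only the number of matches, here to 34, and never leaves a gene without one. Most of the 10 genes have the same annotated 3′UTR length with the longest and the shortest choice, so their result could not change. *ALDH16A1* had none with the longest, and *ALDH3A2* and *ALDH3B1* had none with the shortest. No paired analysis was possible because the table holds no value of a single library, and for the same reason no replicate was left out and no other normalization or test was run. Depth per library is unknown.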
